A study of Mus musculus with 4 samples.

Results

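The genes described here serve heme breakdown and iron handling. They are the heme oxygenases Hmox1 and Hmox2, the ferritin chains Fth1 and Ftl1, the iron exporter Slc40a1, the ferroxidase Cp, the iron importer Slc11a2 and the iron sensors Aco1 and Ireb2. They were taken by symbol as a set of 9 among the 38924 genes listed for each library, and all 9 held enough reads to be tested. No cutoff on a measured value was used, but the set was chosen with earlier results of these data known.

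Kidneys of female CB-17 SCID mice, an immunodeficient strain on a Balb/c background, were profiled by RNA sequencing. All animals received tail vein injections, 3 of them within 7 days, and tissue was collected one day after the last. The 2 control libraries came from mice given saline, and the 2 treated libraries from mice given immune complexes of IgG with Gd-IgA1, the galactose-deficient IgA1 that is the autoantigen of IgA nephropathy. The comparison asks how passively delivered complexes alter the kidney, and the SCID host lacks functional B and T cells of its own.

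Heme oxygenases open the heme ring and release biliverdin, carbon monoxide and iron, and the kidney is exposed to heme whenever free hemoglobin is filtered or red cells enter the tubule. Freed iron is stored in ferritin, a shell of heavy and light chains, or leaves the cell through ferroportin, with ceruloplasmin oxidising it for transferrin. When iron is scarce, the iron regulatory proteins bind a hairpin, the iron responsive element (IRE), in messenger RNAs: at the 5′ end this blocks translation, as in ferritin, and at the 3′ end of the transferrin receptor message it protects the RNA from decay. Part of this control therefore acts on protein output and is outside what RNA counts measure.

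The IRE is the feature that 4 of the 9 genes share, and it is shown here because it was found in both storage genes and in both membrane transporters. The letters searched in GENCODE M21 transcripts of GRCm38, on the sense strand, were a bulged C, an arm of 5 bases, the loop CAGTGN and a second arm of 5 bases, of which at least 4 had to pair with the first (G-T pairs allowed), the pair next to the loop included. Each sequence below is the 5′ to 3′ sense strand of the C57BL/6J reference, 30 bases long, with the loop in capitals.
Fth1: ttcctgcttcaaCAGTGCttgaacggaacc
Ftl1: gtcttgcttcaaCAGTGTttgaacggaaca
Slc40a1: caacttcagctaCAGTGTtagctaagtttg
Slc11a2: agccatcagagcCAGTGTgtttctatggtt
The Fth1 element lies in the 5′ UTR at chr19:9982732-9982761 on the plus strand and the Ftl1 element in the 5′ UTR at chr7:45459778-45459807 on the minus strand. The Slc40a1 element lies in the 5′ UTR at chr1:45925464-45925493 on the minus strand. In these 3 all 5 arm positions pair. The element was found in 4 of 5 coding transcripts scanned for Fth1, 1 of 2 for Ftl1 and 1 of 4 for Slc40a1. The Slc11a2 element is in the 3′ UTR at chr15:100395152-100395181 on the minus strand, pairs at 4 of 5 arm positions, and belongs to 1 of the 6 coding transcripts scanned. For none of the 4 genes do the counts, which are summed per gene, separate forms with the element from forms without it. Hmox1, Hmox2, Cp, Aco1 and Ireb2 held no match. Of all genes with an annotated 5′ UTR 0.847% held one, and of all genes with an annotated 3′ UTR 3.36%, so a match describes letters and pairing and is no proof of a working site.

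Depth was 19675879 to 22791960 reads assigned to genes per library, and 16334 genes passed the filter on low counts. Kidney markers were present in every library, with summed levels of 7684 to 9475 CPM (reads scaled to a common library size, with TMM factors) for 7 proximal tubule genes and 5003 to 7657 CPM for 4 thick ascending limb genes. The libraries also differed in ways that touch the results given further on. Adipocyte markers summed to 56.6 and 457 CPM in saline 1 and 2 and to 1439 and 1101 CPM in immune complex 1 and 2. The immune complex pair differed more from each other than the saline pair did, with a median absolute log2 difference over all tested genes of 0.349 against 0.166. Nothing in the labels says that the libraries are from separate animals, and p-values here measure only the spread between these samples. In whole tissue, fewer cells of a type and less RNA per cell cannot be told apart.

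Per length of transcript, ferritin dominated the set. On the scale of deposited RPKM, Fth1 stood at 3106 ± 139 and Ftl1 at 1622 ± 392 (mean ± SD, n = 4 libraries), which placed them at ranks 17 and 26 of all 38924 listed genes. The cytosolic aconitase gene Aco1 followed at 80.5 ± 5.28 RPKM, rank 643. Slc40a1 stood at 19.0 ± 2.05 RPKM, Ireb2 at 14.8 ± 3.41, Slc11a2 at 12.7 ± 1.02 and Hmox2 at 11.0 ± 0.886. Hmox1 and Cp were the lowest, at 6.31 ± 0.788 and 5.06 ± 1.63 RPKM. From Fth1 down to Slc40a1, and between Hmox2 and Hmox1, the ranges over the 4 libraries did not overlap. Ireb2 overlapped both Slc40a1 above it and Slc11a2 below it, Slc11a2 overlapped Hmox2, and Hmox1 overlapped Cp. Within libraries Slc11a2 was above Hmox2 in 4 of 4, and the other overlapping pairs kept their order in 3 of 4. Fth1 and Ftl1 together took 0.475% and 0.536% of all reads in saline 1 and 2 and 0.534% and 0.402% in immune complex 1 and 2.

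**Figure D1:**
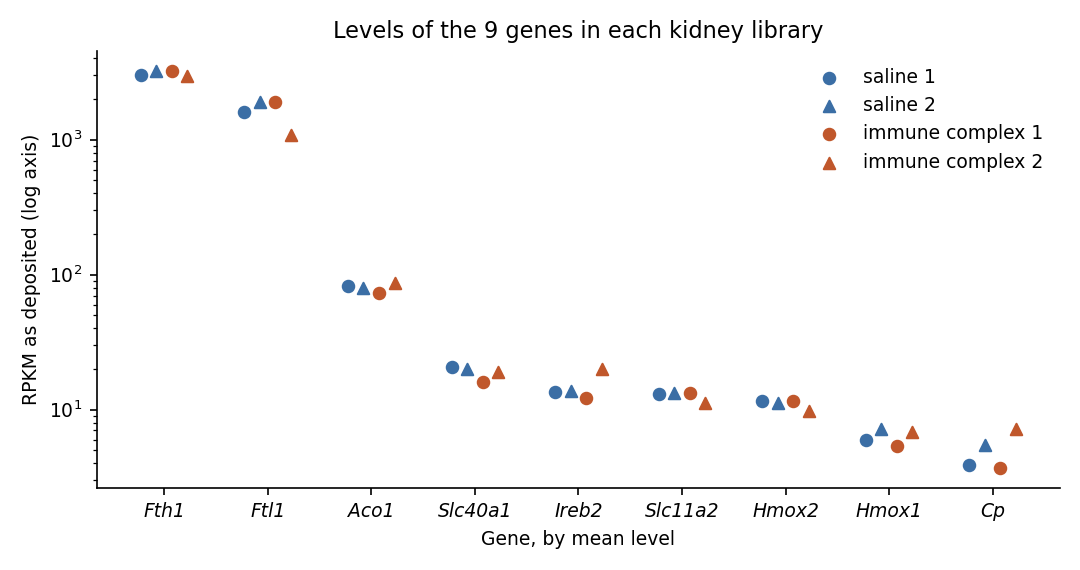
Deposited RPKM of the 9 genes (vertical log axis) in each of the 4 kidney libraries; circles are replicate 1, triangles replicate 2, blue saline and orange immune complex. Fth1 and Ftl1 stand at 3106 and 1622 RPKM on average, and Aco1 is next at 80.5.

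How firmly a level can be read differed between the genes, because only part of the reads carry the files' label of unique. Unique reads were 99.5% to 100% of the total for Hmox1, Slc40a1, Slc11a2, Ireb2 and Aco1. They were 87.3% to 88.5% for Fth1 and 79.4% to 87.0% for Cp. For Hmox2 they were only 38.5% to 40.9%, and for Ftl1 13.4% to 15.2% (Wilson 95% interval of the lowest Ftl1 share 13.0% at its lower end; such intervals cover only counting error, as reads lacking molecular identifiers need not be independent molecules). Ftl1 transcripts matched 13 other annotated genes at 95% identity or more over at least 100 bases, the longest match being 99.6% over 910 bases with the copy Ftl1-ps1. None of the 11 such genes listed in the files held more than 54 reads in a library, against 31212 to 58408 for Ftl1. Ftl2, which is among those 11 genes, held 7 to 10 reads, none of them unique. Hmox2 shares 767 identical bases with Cdip1, a cell death regulator encoded on the opposite strand, which held 1995 to 2320 reads. Whether counting used strand is not given in the sources, so Hmox2 and Cdip1 reads in that stretch cannot be told apart. With unique exon reads alone the level came to 237.0 RPKM for Ftl1, still above Aco1, and to 4.79 for Hmox2, below the deposited 6.31 RPKM of Hmox1.

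**Figure D2:**
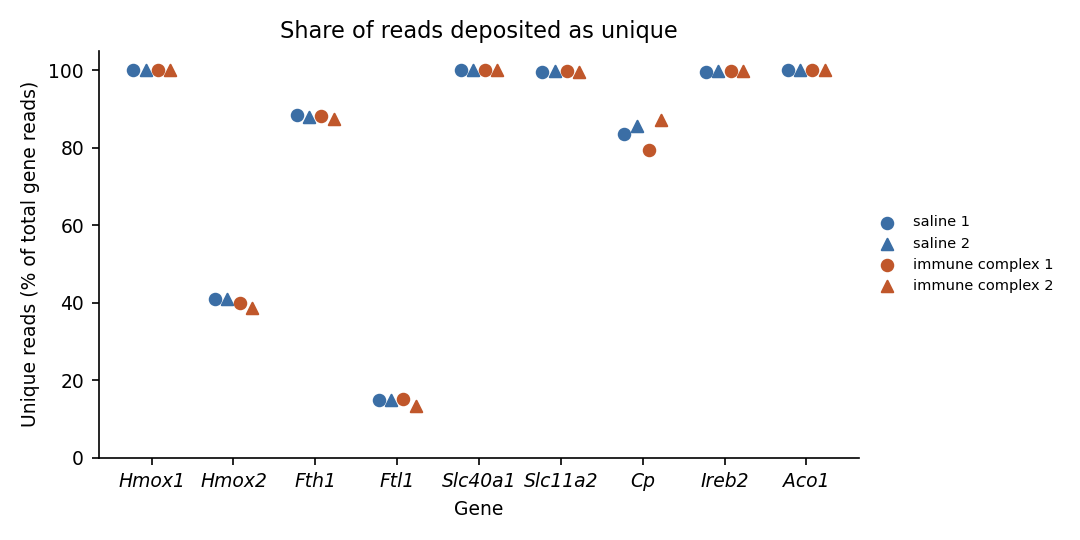
Unique reads as a percentage of total gene reads (vertical axis, from 0) for the 9 genes in each library, with symbols as in the plot of levels. Ftl1 lies at 13.4% to 15.2% and Hmox2 at 38.5% to 40.9%, far below the other 7 genes.

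No gene of the set passed the test of immune complex against saline. By edgeR's quasi-likelihood test with Benjamini-Hochberg adjustment over all 16334 genes, 0 of the 9 were called, where the background was 0 called genes (0%), and the adjusted p of each of the 9 was 0.999968. An unadjusted p under 0.05 was reached by 0 of the 9 and by 749 of all genes (4.59%). DESeq2 called 0 of the 9 and 100 of all genes (0.612%), limma-voom called 0 of the 9 and 0 of all genes (0%), and with both tools 0 of the 9 had an unadjusted p under 0.05. The authors' deposited table gives log2 fold changes of -0.12 to 0.21 for the 9 (read as immune complex over saline), each at an adjusted p of 0.999956. In the edgeR fit 5 genes stood higher and 4 lower with immune complex, and the median log2 fold change was 0.02, beside 0.01 for all tested genes. The fold changes of 5 of the 9 lay within the middle 50% of all tested genes, from -0.15 to 0.17. With total counts as library sizes Hmox2, Fth1 and Aco1 moved from slightly higher to slightly lower, so the count of directions depends on the scaling.

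The failure to pass does not show that the groups were alike, and the intervals give the sizes that these libraries leave possible. The 95% interval of the fold, immune complex over saline, ran from 0.776 to 1.37 for Fth1, 0.677 to 1.19 for Slc40a1 and 0.669 to 1.43 for Hmox1. For Cp it was wider, 0.739 to 2.10, and for Ireb2 0.810 to 1.86. For Ftl1 it ran from 0.549 to 1.44.

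**Figure D3:**
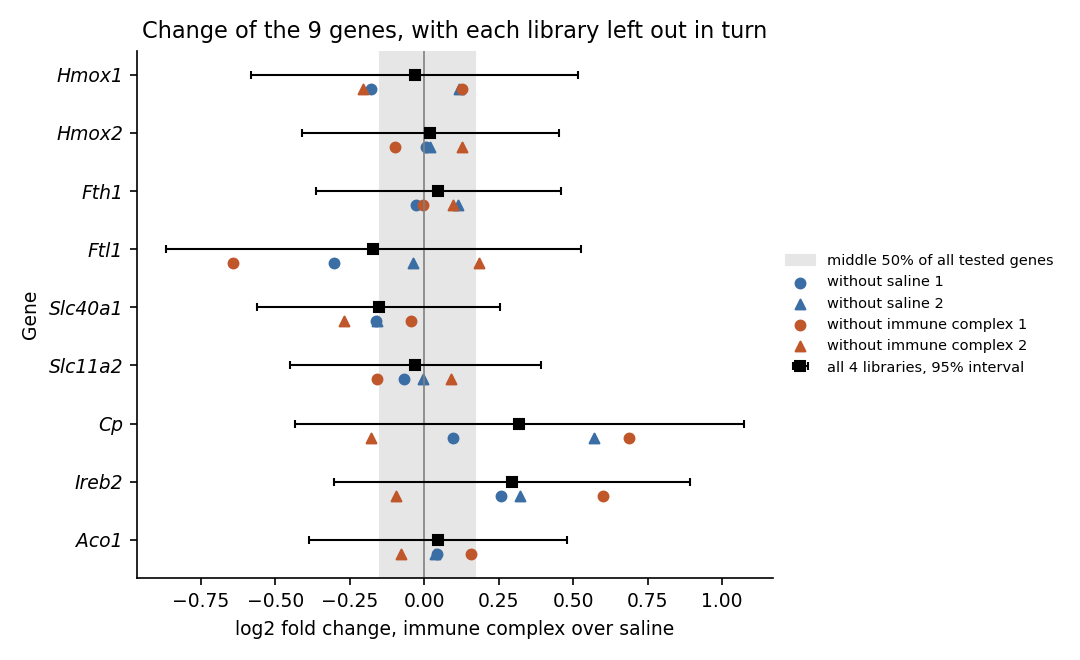
log2 fold change of the 9 genes, immune complex over saline (horizontal axis); black squares with bars are edgeR estimates from all 4 libraries with 95% intervals, coloured symbols the estimates with the named library left out, and the grey band the middle 50% of all tested genes. All 9 bars cross 0, and for all but Slc40a1 the coloured symbols fall on both sides of 0.

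Hmox1 encodes the inducible heme oxygenase, a gene known to respond to heme and oxidative stress. It held 253 and 325 reads in saline 1 and 2 and 269 and 321 in immune complex 1 and 2, which is 12.4, 15.4, 12.1 and 15.2 CPM. Each group had a lower and a higher library, and the ranges of the groups overlapped for the most part. The log2 fold change was -0.03 ± 0.23 (SE), while the saline libraries differed from each other by 0.30 on that scale. Hmox2, the constitutive form, stood at 27.0 and 27.4 CPM after saline and 29.7 and 25.4 CPM after immune complexes. Both saline values fell between the immune complex values, and the log2 fold change was 0.02 ± 0.18. Reads of Hmox1 relative to Hmox2 within a library were 0.462, 0.561, 0.406 and 0.598 in the same order of libraries. The difference of the mean log2 ratios was -0.05 (exact permutation test, two-sided, p = 1). With 2 libraries a group this test cannot give a p under 0.333.

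Biliverdin reductase, the step after heme oxygenase, did not pass the test in either form. Blvra stood at 59.2 and 65.3 CPM after saline and 63.8 and 51.6 CPM after immune complexes, and Blvrb at 16.9, 18.2, 16.5 and 11.0 CPM. Bach1, a repressor of Hmox1 that heme inactivates, differed by 0.11 ± 0.21 on the log2 scale, and Nfe2l2, an activator of Hmox1, by 0.01 ± 0.17. Nqo1, a quinone reductase under the same activator, differed by -0.20 ± 0.18. Of all 9 tested genes listed as regulators or redox targets, 5 stood higher and 4 lower, 0 with an unadjusted p under 0.05, and Mafg, a small Maf partner of these factors, had the lowest p in that list with a log2 difference of 0.26 ± 0.22 (0.02 to 0.47 with a library left out).

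Fth1, the heavy chain that oxidises iron as it enters the shell, was the steadiest of the set in relative terms. It stood at 2515 and 2788 CPM after saline and 2838 and 2640 CPM after immune complexes, with the highest RPKM only 1.09 times the lowest. The groups overlapped and the log2 fold change was 0.05 ± 0.17. Ftl1, the light chain that promotes core formation, stood at 2083 and 2524 CPM after saline and 2617 and 1475 CPM after immune complexes. Immune complex 2 was the lowest and immune complex 1 the highest of the 4, so the log2 fold change of -0.17 ± 0.29 rests on 1 library: without immune complex 2 it was 0.18, without immune complex 1 it was -0.64. The summed proximal tubule markers were also lowest in immune complex 2, at 7684 CPM against 8891, 9001 and 9475 CPM. Slc34a1, Slc5a2, Slc22a6, Slc13a3 and Miox were each lowest in that library. Lrp2, at 2436 CPM, and Slc5a12, at 510 CPM, were instead highest there. The part of the proximal tubule in the Ftl1 value was not tested. Fth1 reads were 1.21, 1.10, 1.08 and 1.79 times the Ftl1 reads in saline 1, saline 2, immune complex 1 and immune complex 2. The mean log2 ratio differed by 0.27 between groups (exact permutation test, two-sided, p = 1, where the smallest p possible is 0.333).

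Ncoa4, the receptor that delivers ferritin to lysosomes, stood at 176.7 and 160.5 CPM after saline and 193.1 and 333.6 CPM after immune complexes. Its groups did not overlap, but most of the log2 difference of 0.64 ± 0.28 came from immune complex 2: without that library it was 0.20, and the adjusted p in edgeR's quasi-likelihood test was 0.999968. Pcbp1, a chaperone that loads iron into ferritin, differed by -0.12 ± 0.18 on the log2 scale, and Fbxl5, the ligase adaptor that removes iron regulatory protein when iron is plentiful, by 0.06 ± 0.19.

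Slc40a1 encodes ferroportin, the cellular iron exporter of mammals. It stood at 68.9 and 69.4 CPM after saline and 57.3 and 67.0 CPM after immune complexes. Both treated values lay below both control values, the single case of non-overlap in the set (1 of 9, 11.1%, where 30% of all tested genes did not overlap), so this is no more than the background. The gap was set by immune complex 1, and the log2 fold change of -0.15 ± 0.17 became -0.04 without it. Thick ascending limb markers were also lowest in immune complex 1, at 5003 CPM against 7192 to 7657 CPM in the other libraries, and their part was not tested.

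Ferroportin and Hmox1 are abundant in macrophages that recycle red cells, and the markers of those cells other than Cd163 were at or near 0. Of the 6 markers, Spic, Marco, Vsig4, Cd5l and Clec4f had too few reads for the test. The list summed to 0.885, 2.08, 2.24 and 4.58 CPM in saline 1, saline 2, immune complex 1 and immune complex 2. Cd163, which was tested, supplied 0.492, 1.23, 1.48 and 3.83 CPM of these sums, without overlap between the groups. Marco was at 0 in saline 1 and immune complex 2, Clec4f in the same 2 libraries and Cd5l in saline 1. General macrophage markers stood higher with immune complex for 10 of 10 genes, 0 of them called, with sums of 193.0 and 209.3 CPM after saline and 242.8 and 282.8 CPM after immune complexes. Hmox1 and Slc40a1 did not follow that order, and the part of macrophages in their levels was not tested.

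Cp encodes ceruloplasmin, a copper ferroxidase that is secreted or membrane anchored. It stood at 41.0 and 57.3 CPM after saline and 43.4 and 79.2 CPM after immune complexes. Immune complex 2 was the highest of the 4, and immune complex 1 lay between the saline values. The log2 fold change of 0.32 ± 0.32 was the largest of the set in size and turned to -0.18 without immune complex 2. Intron reads made up 10.3% to 16.9% of Cp reads, beside 7.48% to 12.8% for Hmox2. Heph, the membrane ferroxidase hephaestin, differed by 0.06 ± 0.20 and stood at 58.4, 56.8, 51.2 and 68.7 CPM.

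Slc11a2 encodes DMT1, which carries ferrous iron into the cell and out of endosomes. It stood at 84.7 and 89.3 CPM after saline and 92.5 and 77.8 CPM after immune complexes. The saline values lay between the immune complex values, and the log2 fold change of -0.03 ± 0.18 turned to 0.09 without immune complex 2. Cybrd1, a ferric reductase, was low at 1.17 to 2.41 CPM, and the zinc and iron importer Slc39a14 stood at 36.5, 44.6, 29.3 and 53.5 CPM with overlapping groups.

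Among the sensors, Aco1 encodes iron regulatory protein 1, an aconitase that binds IREs after losing its iron-sulfur cluster, and Ireb2 encodes iron regulatory protein 2, which is degraded when iron is plentiful. Aco1 stood at 361.1 and 361.2 CPM after saline and 342.4 and 402.8 CPM after immune complexes. The saline pair was nearly equal and lay between the treated values, with a log2 fold change of 0.05 ± 0.18. Ireb2 stood at 76.9 and 81.0 CPM after saline and 74.0 and 119.7 CPM after immune complexes. Again immune complex 2 was the highest and immune complex 1 the lowest, and the log2 fold change of 0.29 ± 0.25 turned to -0.09 without immune complex 2. Reads of Aco1 were 4.69, 4.46, 4.63 and 3.36 times those of Ireb2. The mean log2 ratio differed by -0.21 (exact permutation test, two-sided, p = 0.667), and over the 3 ratios tested the Benjamini-Hochberg adjusted p of each was 1. With 2 libraries against 2 the smallest p such a test can give is 0.333.

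The most variable genes of the set, Cp, Ftl1 and Ireb2, had their extreme value in the same library. Between immune complex 2 and immune complex 1 the log2 difference was -0.83 for Ftl1, 0.86 for Cp and 0.69 for Ireb2. Of all tested genes 12.1%, 10.9% and 18.4% differed at least as much between those 2 libraries, so these gaps were among the wider ones of the pair without standing outside it. The median absolute difference of the 9 genes was 0.250 in the immune complex pair and 0.0755 in the saline pair, below the medians of all tested genes in both.

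**Figure D4:**
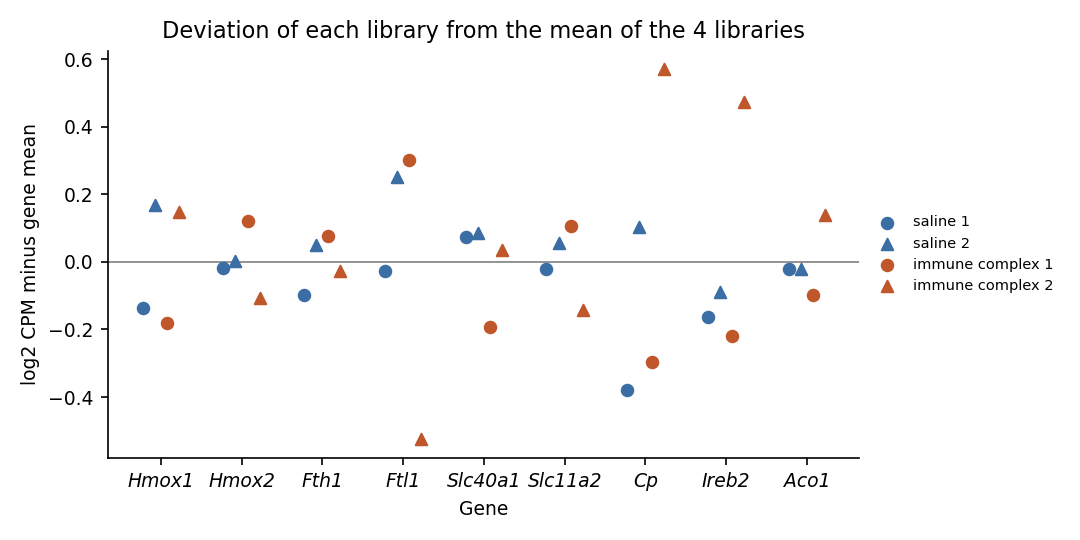
Deviation of each library from the mean of the 4 libraries in log2 CPM (vertical axis) for the 9 genes, with symbols as in the plot of levels. Immune complex 2 (orange triangles) lies lowest for Ftl1 and highest for Cp and Ireb2. The saline libraries lie closer together than the immune complex libraries for all genes but Fth1, with their widest gap of 0.48 for Cp.

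The genes whose pattern over the 4 libraries was nearest to Hmox1 were Kcnc2, Zfp790, Acad12, Ces2e and Entpd2. Their Euclidean distances in centred log2 CPM were 0.0321, 0.0413, 0.0432, 0.0463 and 0.0512, where the median over the 12961 genes compared was 0.470. Like Hmox1, each was higher in the second library of either group, and with only 4 libraries such likeness is a description of these samples.

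Around the set, 70 other genes of heme and iron biology were read from lists, and 64 had enough reads. By edgeR's quasi-likelihood test with Benjamini-Hochberg adjustment 0 were called, and by limma-voom 0, whereas DESeq2 called 1, Trf. An unadjusted p under 0.05 in the edgeR test was reached by 7 genes (10.9%, beside 4.59% of all tested genes). By DESeq2 this count was 8 and by limma-voom 5. The lists were chosen with earlier results of these data known, so such shares only describe them. Of the 64 genes, 21 did not overlap between groups (32.8%, beside 30% of all tested genes). In direction 39 stood higher and 25 lower, with a median log2 fold change of 0.04.

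The largest difference among the 64 genes was that of Hp. Hp, haptoglobin, which captures free hemoglobin in plasma, stood at 0.197 and 4.68 CPM after saline and 24.0 and 45.1 CPM after immune complexes. Both treated libraries were above both controls, and the controls differed widely between themselves. The log2 difference was 3.81 ± 0.95 with an adjusted p of 0.772 in edgeR's quasi-likelihood test, and it ranged from 2.88 without saline 1 to 7.40 without saline 2. Those fits passed the threshold, with adjusted p of 3.72e-06 and 1.82e-23, but their single saline library is assumed to vary like the immune complex pair, which leaves out the gap between the saline libraries. Without immune complex 1 or 2 the adjusted p of Hp in the same edgeR test was 0.198 or 0.521. Trf, transferrin, stood at 16.6 and 41.5 CPM after saline and 84.7 and 84.0 CPM after immune complexes, again without overlap. Its log2 difference was 1.54 ± 0.40 with an adjusted p of 0.805 by edgeR's quasi-likelihood test and 0.00459 by DESeq2, and it was 1.09 with unique reads alone. It was 1.02 without saline 1 (adjusted p = 0.999871 in the same edgeR test) and 2.34 without saline 2 (adjusted p = 3.08e-05, with the same assumption about the single saline library). Without immune complex 1 or 2 the adjusted p of Trf in that test was 0.230 or 0.521. Both genes are also expressed in fat. Both were lowest in saline 1, then saline 2, and higher in both treated libraries, as were the summed adipocyte markers. Of these markers 8 of 8 stood higher with immune complex. Within the treated pair the order differed for Hp, which was higher in immune complex 2, at 45.1 against 24.0 CPM. The adipocyte sum was lower there, at 1101 against 1439 CPM. The part of adipose tissue in the Hp and Trf values was not tested. Hepatocyte markers summed to 61.2 and 83.3 CPM in saline and to 75.7 and 82.2 CPM in immune complex libraries.

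Cd163, the macrophage receptor that takes up haptoglobin with hemoglobin, stood at 0.492 and 1.23 CPM after saline and 1.48 and 3.83 CPM after immune complexes. Its log2 difference of 1.61 ± 0.62 became 0.77 without immune complex 2. Hpx, hemopexin, which captures free heme, stood at 0.0984 to 0.331 CPM and was not tested. Slc48a1, which returns heme from lysosomes, differed by -0.21 ± 0.17, and the heme exporter Flvcr1 by 0.19 ± 0.28.

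Of the 14 tested genes of iron uptake, 12 stood higher and 2 lower with immune complex, and edgeR called 0. Groups did not overlap for 5 of the 14, where 30% of all tested genes did not overlap. Tfr2, Slc39a14, Slc39a8, Steap3, Cybrd1, Lrp2 and Cubn overlapped between groups. For each of these genes the difference turned to lower in some fit with a library left out. Tfrc, the transferrin receptor, whose 3′ UTR held 4 IRE matches, stood at 47.2 and 33.0 CPM after saline and 57.2 and 62.0 CPM after immune complexes. The log2 difference was 0.57 ± 0.22 and ranged from 0.32 without saline 2 to 0.85 without saline 1. Scara5, a ferritin receptor named here after its values were seen, differed by 1.36 ± 0.50, and by 0.58 without immune complex 2. Lcn2, a carrier of iron-binding siderophores that is used as a marker of tubular injury, was lower, at 5.17 and 4.78 CPM after saline and 2.46 and 2.93 CPM after immune complexes. Its log2 difference was -0.88 ± 0.29 with an adjusted p of 0.957 in edgeR's quasi-likelihood test. Urothelium markers summed to 51.7 and 78.7 CPM after saline and 15.0 and 14.8 CPM after immune complexes. Of the 6 markers only Psca did not overlap between groups, and it supplied 46.3 CPM of the sum in saline 1. The other 5 were lower in saline 1 than in both immune complex libraries and turned to higher without saline 2. The part of urothelium in the Lcn2 value was not tested.

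Heme synthesis showed 4 of 9 genes higher and 5 lower. Alas2, the erythroid form of the first enzyme of heme synthesis, which held 1 IRE match in its 5′ UTR, stood at 2.90 and 1.85 CPM after saline and 4.12 and 7.85 CPM after immune complexes. The log2 difference was 1.33 ± 0.42 with an adjusted p of 0.941 in edgeR's quasi-likelihood test, and 0.80 without immune complex 2. Alas1, the form used outside the erythroid lineage, differed by 0.23 ± 0.21 and Fech, which inserts the iron, by 0.06 ± 0.17. Erythroid markers, which include Alas2, summed to 629 and 547 CPM in saline and to 955 and 984 CPM in immune complex libraries, with 6 of 7 tested genes higher. The part of blood in the Alas2 and Tfrc values was not tested.

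The hepcidin axis was almost silent at its hormone, as is usual outside liver: Hamp held 2 reads in saline 2 and 0 in the other libraries. The list stood higher for 2 and lower for 5 of 7 tested genes, and Id1, a target of the pathway that drives hepcidin, had its lowest p with a log2 difference of -0.33 ± 0.16. In mitochondria, the iron importer Slc25a37 differed by 0.20 ± 0.17 and its relative Slc25a28 by -0.26 ± 0.19, which ranged from -0.45 to -0.09 with a library left out. Ugt1a1, which conjugates bilirubin, differed by 0.50 ± 0.27, and its estimate ranged from 0.18 to 0.89 with a saline library left out. These differences carried an adjusted p of 0.999968 in edgeR's quasi-likelihood test.

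**Figure D5:**
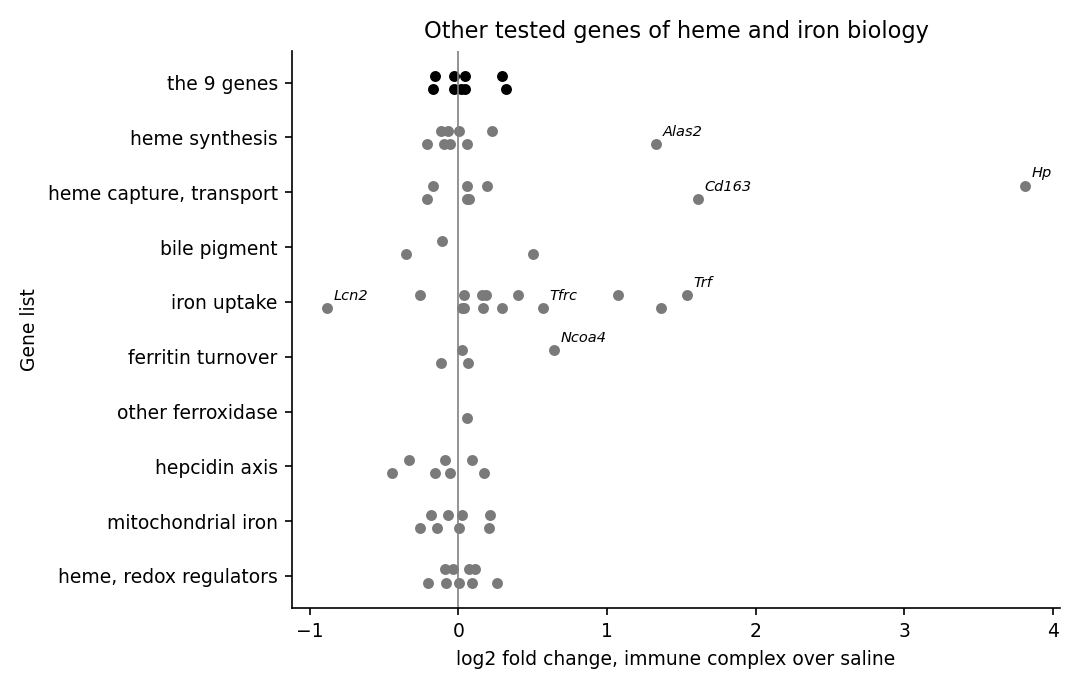
log2 fold change, immune complex over saline (horizontal axis), of the 9 genes (black) and of the other tested genes of heme and iron biology (grey, one point a gene) by list; points are offset vertically for legibility. The 9 genes lie between -0.17 and 0.32, and Hp at 3.81 is the farthest from 0.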

How the data were processed

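Per the labels' protocols, a service company extracted RNA from kidney pieces and made Illumina libraries. STAR 2.5.2b, DESeq2 and GRCm38 are named, without a role, in the submitters' processing notes. The sources do not give the read counter, annotation release or strand setting. Per the file headers, the deposited tables hold raw counts per gene (total, unique, exon, intron) and RPKM that the authors computed, recovered here for 99.7% of genes from exon reads, exon length and depth to within a relative difference of 0.0001. Gene and exon lengths are in bases per the file headers, and other annotation columns give numbers of exons and transcripts. The authors' deposited comparison table gives a log2 fold change with its error, a p-value, an adjusted p-value and a mean normalized count (a signal over the 4 libraries). It lists 16128 genes, its counts are identical to total gene reads, and its fold changes are saline over immune complex (sign opposite to the read ratio for 80 of 80 genes at an adjusted p under 0.05). All sample columns were matched by title.

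Tests on total gene reads used edgeR 4.0.16 under R 4.3.3 (filterByExpr, TMM, glmQLFit, glmQLFTest, no block) and Benjamini-Hochberg adjustment at 0.05 over 16334 genes, after the code was tested on simulated data. Degrees of freedom were 2 residual and 4.61 prior, with a biological coefficient of variation of 0.212. A standard error is the fold change over the square root of F. CPM uses TMM-scaled library sizes. Log2 CPM used a prior count of 2. DESeq2 1.42.0 and limma 3.58.1 were alternatives, with other scalings, no filter, exon or unique reads, no mitochondrial genes, a replicate block and each library left out. Differences between the libraries of a group exceeded counting noise (chi-square per degree of freedom 18.4 in saline and 62.0 in immune complex). Within each group, therefore, neither library was a copy of the other.

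IRE letters were searched in GENCODE M21 transcripts, and copies with blastn 2.17.0. The 9 genes, the 10 lists of other genes and the 11 marker lists (150 of 151 entries found, by symbol or synonym) were chosen with earlier results of these data known. Named were all 9 genes, a fixed choice of other heme and iron genes, the lowest p of each list, and the 5 genes nearest to Hmox1 at a mean of 1 CPM or more, leaving out gene-model and pseudogene symbols.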

Additional observations from a re-analysis of the deposited data

How the results depend on the processing

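None of the 9 genes was called under any alternative run, and the lowest adjusted p of any of them was 0.192, for Ireb2 without immune complex 1. Called genes over the whole table numbered 0 in the reported fit, 100 by DESeq2 (41 higher, 59 lower), 2 without a filter, 1 with unique reads, and 0 with limma-voom, with RLE scaling, with total counts as library sizes, with exon reads and without mitochondrial genes. Leaving out 1 library gave 0 to 279 called genes, the highest without saline 2, 47 without saline 1 and 0 without either immune complex library. With the replicate number as a block it was 55 (27 higher, 28 lower); deviations of same-numbered libraries correlated at -0.13, so the numbers were not taken as pairs. A crossed pairing, chosen after seeing the data, gave 160 (72 higher, 88 lower). Hp and Trf passed with the replicate block, at adjusted p of 0.000812 and 0.0239.

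Over 10 alternatives without a left-out library, 5 of 90 fold changes of the 9 genes changed direction. With total counts as library sizes Hmox2 was at -0.043, Fth1 at -0.015 and Aco1 at -0.018 on the log2 scale, and Hmox2 was at -0.016 with exon reads and -0.039 with unique reads. With a library left out, 10 of 36 values changed direction, in 8 of the 9 genes. The ranges were -0.21 to 0.13 for Hmox1, -0.098 to 0.13 for Hmox2, -0.027 to 0.11 for Fth1, -0.64 to 0.18 for Ftl1, -0.27 to -0.044 for Slc40a1, -0.16 to 0.089 for Slc11a2, -0.18 to 0.69 for Cp, -0.094 to 0.60 for Ireb2 and -0.077 to 0.16 for Aco1. Their median ranged from -0.077 (without immune complex 2) to 0.034. The Hmox1 to Hmox2 log2 ratio differed by 0.0036 with exon reads or RPKM and by 0.014 with unique reads. With a library left out it ranged from -0.33 to 0.23, the Fth1 to Ftl1 ratio from -0.091 to 0.63 and the Aco1 to Ireb2 ratio from -0.44 to 0.016. The causes were not tested.

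The mean level of Hmox2 was 12.3 RPKM from total reads and TMM-scaled library sizes. From unique exon reads it was 4.79, that of Fth1 2734 and that of Ftl1 237.0. The lowest depths in the set were 253 to 325 reads a library for Hmox1 and, among unique reads, 207 to 264 for Hmox2.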
